A study of Mus musculus with 6 samples.

Results

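The NF-kB transcription factors and their inhibitors were examined as 10 genes chosen by name from the 55740 gene models of the deposited expression table. They were the subunit genes Rel, Rela, Relb, Nfkb1 and Nfkb2 and the inhibitor genes Nfkbia, Nfkbib, Nfkbie, Nfkbiz and Tnfaip3. All 10 were found in the table, and all 10 were among the 12539 genes that reached 1 TPM or more in 3 or more samples and so entered the test. RNA had been sequenced from dendritic cells grown from the bone marrow of C57BL/6J mice. There were 3 samples given 18 mM lysine for 6 h and 3 samples given PBS for 6 h, with no genetic change or other stimulus named in the labels. TPM is the length-corrected share of a gene in all transcripts of a sample, scaled to the same total in every sample. It allows levels to be compared between genes, keeps no sequencing depth, and gives no counting error. The labels name neither separate cultures nor separate animals for the replicates, and the spread that the p-values rest on may be technical.

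NF-kB proteins bind DNA as dimers. RelA, c-Rel and RelB, the products of Rela, Rel and Relb, carry activation domains, while p50 and p52 are cut from the longer precursors that Nfkb1 and Nfkb2 encode. In resting cells the dimers are held in the cytoplasm by IkB proteins. The canonical route frees them when the IKK kinase complex marks IkB for destruction, and the non-canonical route frees RelB with p52 when NIK drives the processing of the Nfkb2 product. Several inhibitor genes are themselves switched on by NF-kB and form its negative feedback. In dendritic cells the family is known for its part in maturation and cytokine production.

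Of the 6 dendritic markers, 3 were abundant in every sample and 3 were not. Itgax, which encodes CD11c, lay between 371 and 384 TPM with lysine and between 347 and 385 TPM with PBS, and Cd74, the invariant chain of MHC class II, lay between 2999 and 4046 TPM with lysine and between 2735 and 4141 TPM with PBS. H2-Ab1, an MHC class II gene, had 354 to 677 TPM with lysine and 319 to 741 TPM with PBS. Flt3, a receptor of dendritic cell growth, was near the floor, at 0.95 to 1.68 TPM with lysine and 1.26 to 2.66 TPM with PBS. Zbtb46, a transcription factor of classical dendritic cells, had 7.25 to 9.88 TPM with lysine and 6.99, 32.9 and 9.16 TPM with PBS. Ciita, the MHC class II activator, was lower with lysine, at 3.10 to 3.79 TPM, against 4.98 to 9.05 TPM with PBS. The sum of the 6 was 3739 to 5115 TPM with lysine and 3459 to 5288 TPM with PBS, most of it Cd74. The summed level of 5 macrophage markers was 767 to 820 TPM with lysine and 893 to 941 TPM with PBS. Of the 5, 3 (Adgre1, Mertk and Fcgr1) were called lower with lysine, as were 29.3% of all genes tested. Cd68, the highest of the 5, exceeded Itgax, at 449 to 519 TPM with lysine and 534 to 553 TPM with PBS. The 5 neutrophil markers summed to 33.2 to 39.5 TPM with lysine and 71.9 to 110 TPM with PBS, nearly all of it S100a8, which was lower with lysine, with Elane at 0 in all samples. The 3 monocyte markers summed to 5.72 to 20.4 TPM with lysine and 14.8 to 41.0 TPM with PBS, with Ccr2 lower. The mast cell, B cell, T or NK cell, erythroid and fibroblast lists each summed to at most 8.63 TPM in any sample. Among them Cpa3, a mast cell protease gene, was lower, at 0.24, 0.43 and 0.6 TPM with lysine and 6.09, 4.83 and 2.24 TPM with PBS (log2 fold change -1.85 ± 0.30, adjusted p = 0.00225). The part of these shifts in the NF-kB values was not tested, and in bulk RNA fewer cells of a type and less RNA per cell cannot be told apart. Lysine replicate 3 was the lysine sample nearest to PBS for 47.2% of the genes that changed and for 7 of the 10 NF-kB genes. All 10 were also called without it. Replicate 3 of both groups also held the most H2-Ab1, with 677 TPM in lysine replicate 3 and 741 TPM in PBS replicate 3, against 319 to 360 TPM in the other samples.

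All 10 genes differed between lysine and PBS. In a limma fit across all genes tested, 8 of the 10 were higher and 2 were lower at a Benjamini-Hochberg adjusted p under 0.05, where 55.1% of all genes tested were called, 25.8% higher and 29.3% lower. The risers were Rel, Rela, Relb, Nfkb1, Nfkbia, Nfkbib, Nfkbiz and Tnfaip3, and the genes that fell were Nfkb2 and Nfkbie. The 3 lysine samples did not overlap the 3 PBS samples for any of the 10, against 63.4% of all genes tested (29.7% higher and 33.7% lower with lysine). The median log2 fold change was 1.03 over the 10 genes and -0.05 over all genes tested. Of the 10, 5 changed at least 2-fold, all of them upward, beside 1738 of all 12539 genes tested that did so in either direction. Fold changes are differences on the log2(TPM + 1) scale, lysine minus PBS, with their standard error (SE).

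**Figure D1:**
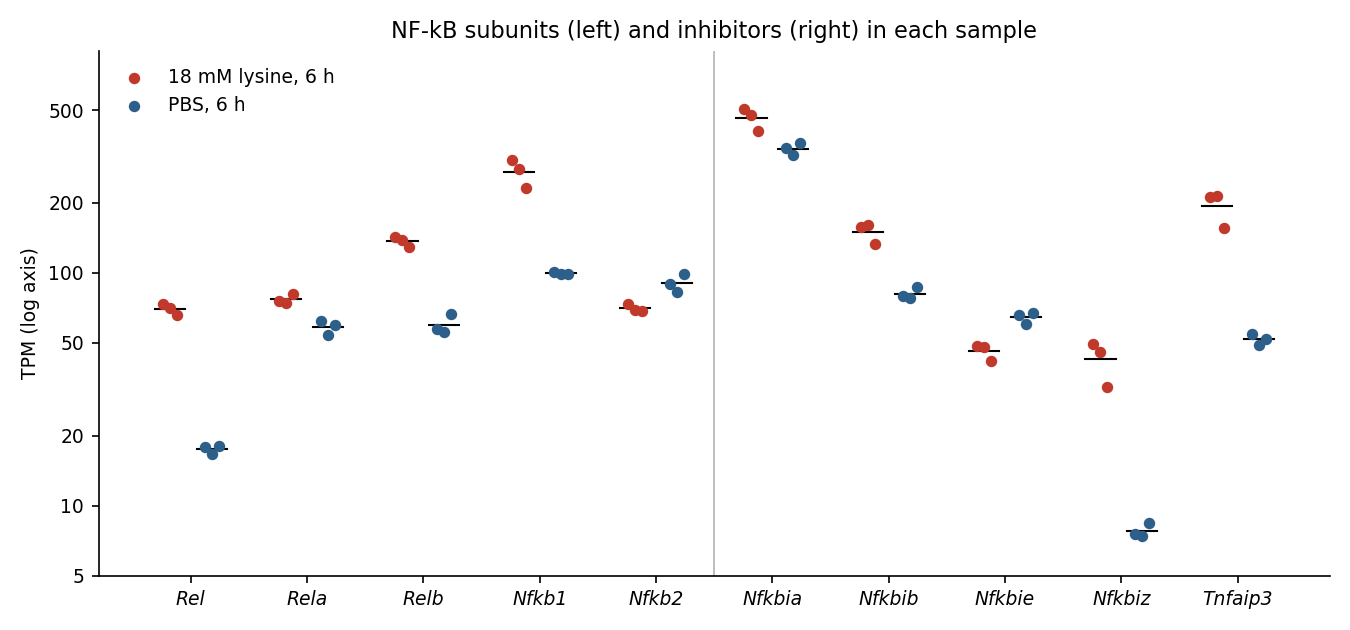
TPM on a log axis for each NF-kB subunit gene (left of the line) and inhibitor gene (right of it) in the 3 lysine samples (red) and the 3 PBS samples (blue); points are samples and bars are group means. Red and blue points do not overlap for any gene, and only Nfkb2 and Nfkbie have the red points lower.

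Among the subunits that carry activation domains, Rel rose most. Rel encodes c-Rel, a subunit prominent in lymphoid and myeloid cells, and lies on chromosome 11, 23736847 to 23770970 (GRCm38, minus strand). It stood at 73.6, 70.6 and 66.2 TPM in the lysine samples, against 17.9, 16.6 and 18.1 TPM in the PBS samples. Every lysine sample was thus well above every PBS sample, and the group means were 70.2 ± 3.74 and 17.5 ± 0.805 TPM (SD, n = 3 each), a 4.0-fold difference. The log2 fold change was 1.94 ± 0.069 (SE; adjusted p = 1.55e-05), the 149th largest rise of the 12539 genes. Relb (chromosome 7, 19606217 to 19629438, minus strand), whose product pairs with p52 in the non-canonical route, had 143, 139 and 130 TPM with lysine and 57.2, 55.8 and 66.4 TPM with PBS. Its lysine samples stood well apart from its PBS samples, at a log2 fold change of 1.19 ± 0.082 (adjusted p = 9.58e-05).

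Rela, which encodes the p65 subunit of the classical dimer, changed least among the subunits that rose. It lies on chromosome 19, 5637483 to 5648130 (plus strand), and held 75.4, 74.2 and 81.5 TPM with lysine against 62.2, 54.0 and 59.9 TPM with PBS. The groups were apart by less than the gap seen for Rel or Relb, and the log2 fold change was 0.39 ± 0.074 (adjusted p = 0.00469). This is the only riser for which lysine replicate 3 was the highest lysine sample.

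The precursor genes moved in opposite directions. Nfkb1 (chromosome 3, 135584655 to 135691547, minus strand) encodes p105, which is processed to p50 and also acts as an IkB-like inhibitor in its uncut form. It had 305, 279 and 231 TPM with lysine and 101, 99.2 and 98.8 TPM with PBS. The PBS samples lay within a narrow band while the lysine samples spread, and the log2 fold change was 1.43 ± 0.10 (adjusted p = 0.000102). Nfkb2 (chromosome 19, 46304320 to 46312385, plus strand) encodes p100, the source of p52. It had 73.8, 69.4 and 68.6 TPM with lysine and 89.7, 83.1 and 98.5 TPM with PBS. All 3 lysine samples were lower than all 3 PBS samples, and the log2 fold change was -0.35 ± 0.076 (adjusted p = 0.00782). Exons of Nfkb2 share 299 bases with Psd on the opposite strand, which was at 29.8, 25.2 and 18.9 TPM with lysine and 5.97, 2.93 and 6.24 TPM with PBS. They also share 531 bases with the lncRNA model AC114539.1, not analysed here. The sources used here do not say whether counting used strand, so reads of the overlapping genes in those bases cannot be told apart.

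**Figure D2:**
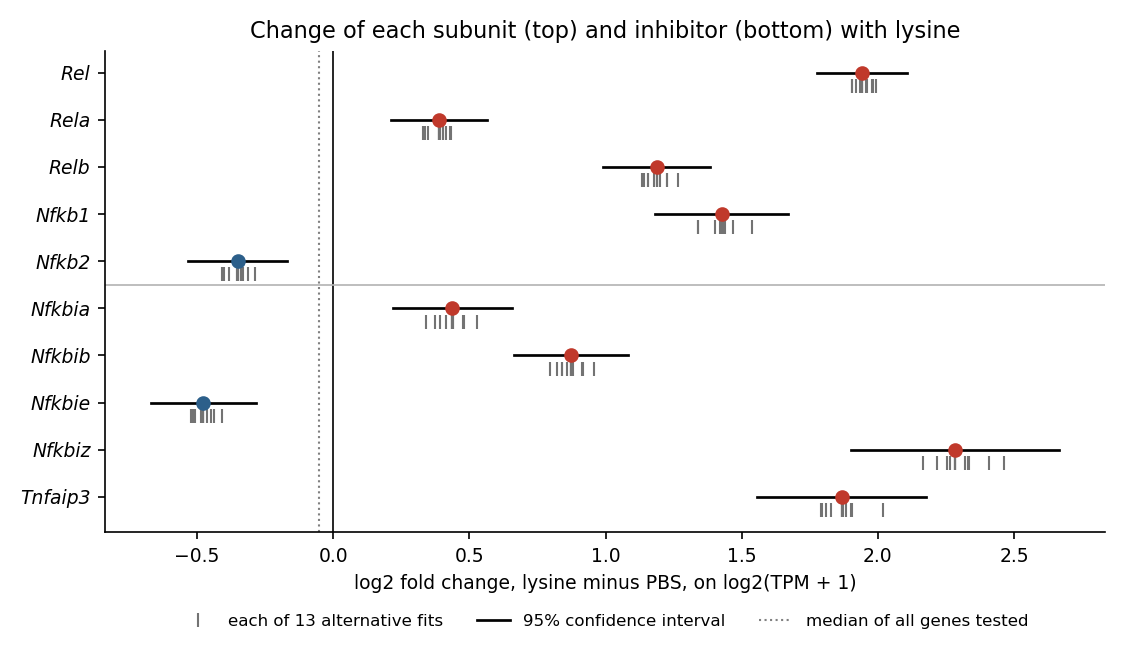
Log2 fold change, lysine minus PBS on log2(TPM + 1), of each gene (dot, red for a rise and blue for a fall) with its 95% confidence interval (black line) and the value under each of 13 alternative fits (grey ticks). No interval reaches 0, and the ticks of each gene stay on the side of its dot.

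These unequal changes altered the make-up of the subunit transcripts. The 5 subunit genes summed to 671, 632 and 577 TPM in the lysine samples and to 328, 309 and 342 TPM in the PBS samples. Nfkb1 made up 45.4%, 44.2% and 40.0% of that sum with lysine and 30.8%, 32.1% and 28.9% with PBS. Nfkb2 made up 11.0%, 11.0% and 11.9% with lysine, against 27.3%, 26.9% and 28.8% with PBS. The share of Nfkb2 was therefore the one that shrank most, while that of Rel was 11.2% ± 0.25 with lysine and 5.37% ± 0.091 with PBS (SD, n = 3 each). Rela made up 12.4% ± 1.54 with lysine and 18.0% ± 0.84 with PBS, a smaller share although its own level rose, and Relb 21.9% ± 0.58 with lysine and 18.3% ± 1.04 with PBS. Shares are of transcripts, sum to 100% within a sample, and so do not move independently of each other.

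**Figure D3:**
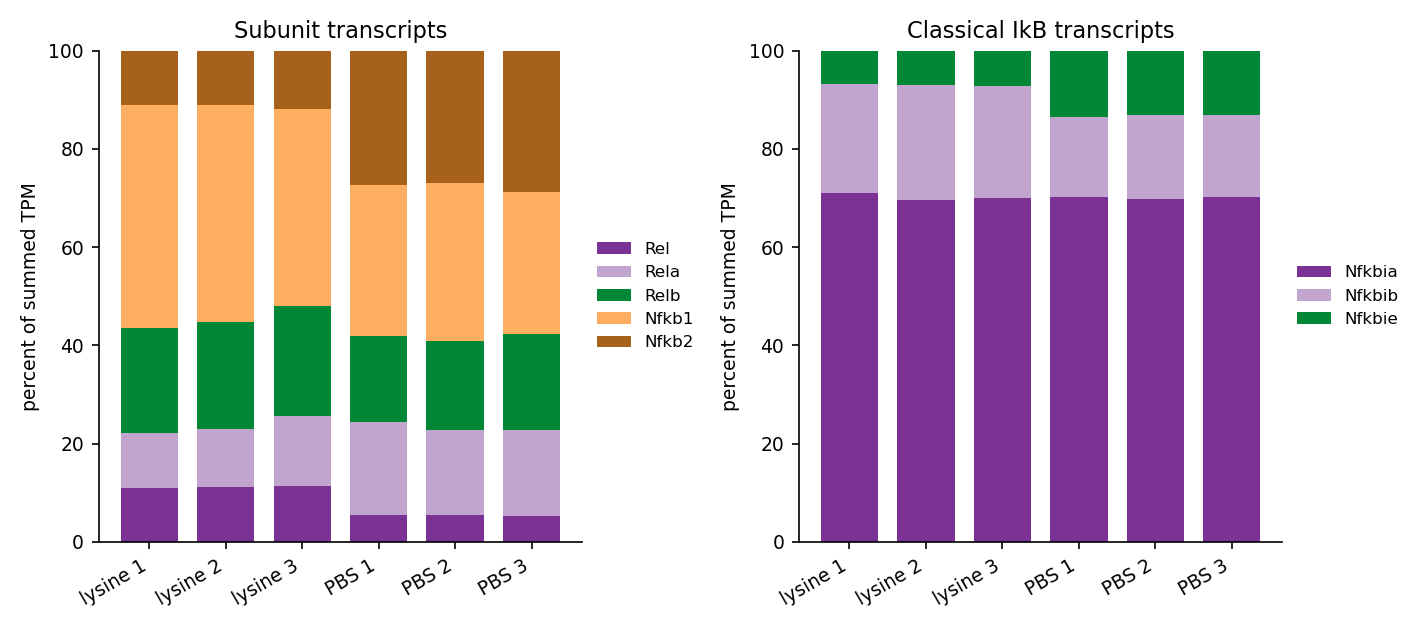
Share of each gene in the summed TPM of the 5 subunit genes (left panel) and of the 3 classical IkB genes (right panel), as stacked percentages for each lysine sample and each PBS sample. Nfkb2 takes about 11 to 12% of the subunit bar with lysine and 27 to 29% with PBS, while Nfkbia keeps about 70% of the IkB bar in all 6 samples.

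The classical IkB genes did not move as a block. Nfkbia (chromosome 12, 55489410 to 55492647, minus strand) encodes IkB-alpha, the inhibitor that is destroyed and remade fastest after a stimulus and a textbook NF-kB target. It was the most abundant of the 10 genes in both groups, at 505, 478 and 408 TPM with lysine and 342, 320 and 361 TPM with PBS. Its lowest lysine sample was only modestly above its highest PBS sample, and the log2 fold change was 0.44 ± 0.091 (adjusted p = 0.00676). Nfkbib (chromosome 7, 28758251 to 28767512, minus strand), which encodes IkB-beta, a slower inhibitor, rose further. It had 157, 161 and 133 TPM with lysine and 79.9, 77.9 and 86.6 TPM with PBS (log2 fold change 0.87 ± 0.088, adjusted p = 0.000347). Its exons share 314 bases with Ccer2, which did not exceed 0.12 TPM in any sample, and 42 bases with Sirt2, which did not pass the test; both lie on the opposite strand.

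Nfkbie, which encodes IkB-epsilon, fell. It lies on chromosome 17, 45555703 to 45563169 (plus strand), and had 48.4, 47.9 and 41.7 TPM in the lysine samples against 65.6, 60.3 and 67.1 TPM in the PBS samples (log2 fold change -0.48 ± 0.081, adjusted p = 0.0028). Nfkbie made up 6.98% ± 0.17 of the summed TPM of Nfkbia, Nfkbib and Nfkbie with lysine and 13.2% ± 0.22 with PBS, and Nfkbib made up 22.8% ± 0.67 with lysine and 16.7% ± 0.31 with PBS (SD, n = 3 each). The share of Nfkbia was 70.2% ± 0.77 with lysine and 70.1% ± 0.18 with PBS. The summed TPM of the 3 IkB genes divided by that of the 5 subunit genes was 1.06, 1.09 and 1.01 with lysine, against 1.49, 1.48 and 1.51 with PBS. Relative to the subunits, IkB transcripts were lower in all 3 lysine samples than in any PBS sample. Their own sum was higher, at 711, 687 and 583 TPM with lysine and 488, 458 and 515 TPM with PBS, but it rose less than the subunit sum.

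Nfkbiz rose most of the 10 genes, followed by Rel and Tnfaip3. Nfkbiz (chromosome 16, 55811375 to 55838899, minus strand) encodes IkB-zeta, a nuclear protein of the IkB family that binds p50 and is needed for a secondary set of targets such as Il6. Its mean level was the lowest of the 10 in both groups, with 49.3, 45.9 and 32.3 TPM in the lysine samples and 7.57, 7.43 and 8.42 TPM in the PBS samples. That is a 5.44-fold difference of the means and a log2 fold change of 2.28 ± 0.16 (adjusted p = 9.63e-05), the 70th largest rise of the 12539 genes. Tnfaip3 (chromosome 10, 19000910 to 19015657, minus strand) encodes A20, a ubiquitin-editing enzyme that shuts off signalling upstream of IKK. It had 212, 213 and 155 TPM with lysine and 54.5, 49 and 52.2 TPM with PBS. The lysine samples were more spread than the PBS samples, with replicate 3 lowest, and the log2 fold change was 1.87 ± 0.13 (adjusted p = 9.63e-05).

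The order of the levels differed between the groups. With lysine it ran Nfkbia, Nfkb1, Tnfaip3, Nfkbib, Relb, Rela, Nfkb2, Rel, Nfkbie and Nfkbiz. The ranges over samples of Tnfaip3 and Nfkbib, of Nfkbib and Relb, of Nfkb2 and Rel, and of Nfkbie and Nfkbiz overlapped there. Within each lysine sample, however, Tnfaip3 was above Nfkbib and Nfkbib was above Relb. The order of Nfkb2 and Rel and that of Nfkbie and Nfkbiz changed between lysine samples. With PBS it ran Nfkbia, Nfkb1, Nfkb2, Nfkbib, Nfkbie, Relb, Rela, Tnfaip3, Rel and Nfkbiz, with overlap between Nfkb2 and Nfkbib, between Nfkbie and Relb, between Relb and Rela, and between Rela and Tnfaip3.

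Ratios between genes within a sample do not depend on the scaling between samples. For 6 pairs the ratios were compared by an exact two-sided permutation test over the samples, which with 3 against 3 cannot give a p below 0.1. The ratio of Rel to Rela was 0.977, 0.952 and 0.812 with lysine and 0.288, 0.308 and 0.301 with PBS, so that c-Rel transcripts came close to those of p65 with lysine. The ratio of Nfkb2 to Nfkb1 was 0.242, 0.248 and 0.297 with lysine and 0.886, 0.838 and 0.997 with PBS. Nfkb2 was thus far below Nfkb1 with lysine and close to it with PBS. The ratio of Tnfaip3 to Nfkbia was 0.42, 0.446 and 0.381 with lysine and 0.159, 0.153 and 0.144 with PBS, a log2 difference of 1.45. The ratio of Relb to Rela was 1.75 times that in PBS and the ratio of Nfkbia to Nfkbib was 0.736 times that in PBS. Each of these 5 ratios had groups that did not overlap and reached the smallest exact permutation p of 0.1 (0.12 adjusted over the 6). The ratio of Nfkbia to Rela was 6.70, 6.44 and 5.01 with lysine and 5.50, 5.93 and 6.03 with PBS, with overlapping groups (exact permutation p = 0.8).

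**Figure D4:**
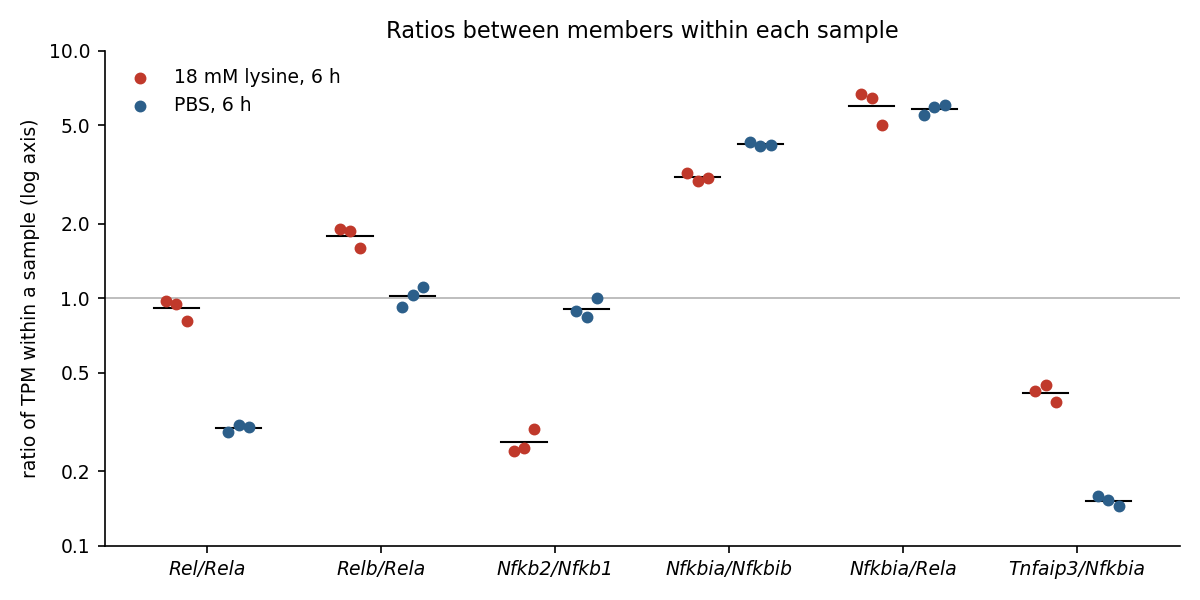
Ratio of the TPM of a pair of NF-kB genes within each sample, on a log axis, for the 3 lysine samples (red) and the 3 PBS samples (blue); bars are geometric means. The groups are apart for every pair except Nfkbia/Rela, where lysine replicate 3 lies below the PBS samples.

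The promoters of several of these genes hold matches to the kB consensus, the DNA sequence to which NF-kB dimers bind, which opens with a run of G and closes with CC. RefSeq promoter windows (GRCm38.p6, 250 bases before to 50 after the start of a transcript) were at hand for Rel, Rela, Nfkb2, Nfkbia, Nfkbib, Nfkbie and Tnfaip3, 7 of the 10 genes, and not for Relb, Nfkb1 and Nfkbiz. Both strands were searched. The consensus was found in 8.46% of all 32851 windows of this length, and in 12.2% of the genes tested that had a window. It was found for Rel, Nfkb2, Nfkbia, Nfkbie and Tnfaip3 and not for Rela and Nfkbib. The 130 bases before the start are shown for 3 genes that rose and 1 that fell, 5′ to 3′ on the strand of the gene with the consensus in capitals, to show that genes on both sides of the response carry it.

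Rel, chr11:23770970-23771099, minus strand: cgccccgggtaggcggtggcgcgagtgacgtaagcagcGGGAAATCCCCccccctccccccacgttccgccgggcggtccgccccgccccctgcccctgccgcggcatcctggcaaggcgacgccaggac

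Tnfaip3, chr10:19015411-19015540, minus strand: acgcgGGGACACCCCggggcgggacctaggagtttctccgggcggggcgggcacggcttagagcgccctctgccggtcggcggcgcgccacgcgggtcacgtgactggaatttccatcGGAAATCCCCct

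Nfkbia, chr12:55492648-55492777, minus strand: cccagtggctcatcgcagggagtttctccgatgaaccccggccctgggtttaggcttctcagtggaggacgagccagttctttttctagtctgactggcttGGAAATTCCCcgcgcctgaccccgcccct

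Nfkbie, chr17:45555570-45555699, plus strand: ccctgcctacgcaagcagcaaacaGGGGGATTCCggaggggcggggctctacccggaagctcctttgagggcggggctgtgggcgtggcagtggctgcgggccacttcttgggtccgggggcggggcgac

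In Rel the capitals cover a pair of overlapping matches that begin 92 and 91 bases before the start. In Tnfaip3 the matches begin 125 and 12 bases before it, in Nfkbia 29 and in Nfkbie 106. The first of 3 windows of Nfkb2, which fell like Nfkbie, holds GGGAATTCCC 39 bases before the start and GGGGCTTTCC 11 bases before it. An overlapping match there begins 38 bases before the start. In the second window of Nfkb2 matches begin 236 bases before the start and at base 11 after it. The third holds a match that begins 225 bases before the start. The second window of Tnfaip3 holds none. A match was thus present in 3 of the 5 risers that had a window (Rel, Nfkbia and Tnfaip3) and in both genes that fell. Over the genes tested, 13.5% of those called higher, 12.0% of those called lower and 11.6% of those not called held a match. Among the known NF-kB targets listed below, 12 of the 30 with a window (40%) held one. These included 7 of 18 called higher and 1 of 3 called lower. A match is a run of letters and not evidence of binding, and binding was not measured here.

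The genes around these members were followed in 9 lists by role, with 122 genes tested. Of these, 57 rose, 35 fell and 30 did not pass the test, with a median log2 fold change of 0.23. Over all genes tested, 25.8% were called higher, 29.3% lower and 55.1% in all, with a median of -0.05, and the list counts that follow stand beside those shares with no test of the difference. Among 3 further IkB family genes all 3 rose. Bcl3, a nuclear IkB protein that partners p50 and p52, had 65.3 ± 5.0 TPM with lysine and 34.9 ± 3.60 TPM with PBS (log2 fold change 0.89 ± 0.094, adjusted p = 0.000427). Nfkbil1 had 25.9 ± 1.94 TPM with lysine and 18.1 ± 1.04 TPM with PBS (adjusted p = 0.00276). Nfkbid, which encodes the nuclear inhibitor IkB-NS, had 33.9 ± 1.92 TPM with lysine and 26.8 ± 4.32 TPM with PBS. Its adjusted p of 0.0477 is close to the threshold, and was 0.0762 to 0.135 when any lysine replicate, or PBS replicate 1 or 2, was left out.

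**Figure D5:**
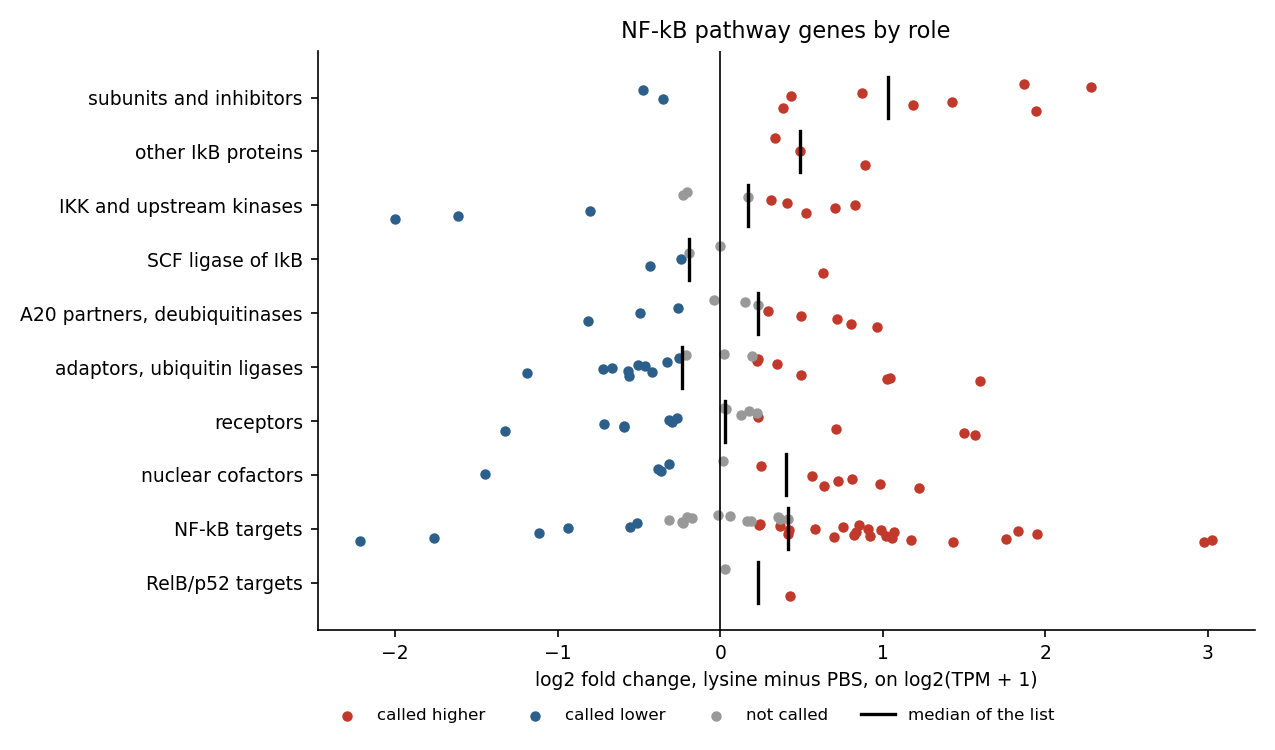
Log2 fold change, lysine minus PBS on log2(TPM + 1), of each tested gene in the NF-kB set (top row) and in 9 lists of pathway genes; red points were called higher, blue lower and grey neither, and black bars are list medians. The median of the top row is 1.03, and those of the 9 lists lie between -0.23 and 0.49.

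In the list of IKK and its upstream kinases 5 of 11 rose, 3 fell and 3 did not pass (median log2 fold change 0.17), where 25.8% of all genes tested were called higher and 29.3% lower. Ikbkg, which encodes NEMO, the regulatory subunit of IKK, had the most negative log2 fold change of the list. It had 25.4 ± 3.82 TPM with lysine and 105 ± 12.7 TPM with PBS (log2 fold change -2.00 ± 0.13, adjusted p = 7.73e-05). Its exons share 418 bases with G6pdx on the opposite strand, which was itself at 58.9 ± 6.27 TPM with lysine and 146 ± 12.5 TPM with PBS, so reads there cannot be told apart. Of the other list genes named here, Bcl3, Nfkbil1, Ikbke, Cul1, Btrc, Spata2, Irak2, Ncor1, Sirt1, Il1a, Il1b, Csf2, Ebi3 and Map3k14 also share exon bases with another gene model. Reads in those bases likewise cannot be told apart, but the level of the other model varied widely. It was 0 TPM in all samples for Sirt1 (Gm16145) and Csf2 (Gm12223), and 67.1 to 79.9 TPM for Spata2 (Rnf114). The catalytic subunits behaved differently. Chuk, which encodes IKK-alpha, had 36.9 ± 3.80 TPM with lysine and 29.5 ± 1.55 TPM with PBS (adjusted p = 0.0238, but 0.0785 without PBS replicate 1 and 0.0698 without PBS replicate 2). Ikbkb, which encodes IKK-beta, had 56.9 ± 3.20 TPM with lysine and 50.3 ± 1.98 TPM with PBS and missed the threshold (adjusted p = 0.0616, and 0.0227 under median-of-ratios scaling). The IKK-related kinases, which act in interferon induction, split. Ikbke had 40.2 ± 5.87 TPM with lysine and 125 ± 11.9 TPM with PBS (log2 fold change -1.61 ± 0.12), and Tbk1 had 81.9 ± 5.12 TPM with lysine and 56.4 ± 1.56 TPM with PBS (log2 fold change 0.53 ± 0.064).

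Genes of the non-canonical route were measured beside Relb and Nfkb2. Map3k14, which encodes NIK, had 21.8 ± 3.58 TPM with lysine and 25.2 ± 2.75 TPM with PBS and did not pass the test (adjusted p = 0.251). Traf3, an adaptor that keeps NIK low in resting cells, had 44.9 ± 1.84 TPM with lysine and 14.2 ± 0.785 TPM with PBS (log2 fold change 1.6 ± 0.071, adjusted p = 2.63e-05). Of 8 listed RelB/p52 targets 2 passed the filter on low values. Ccl17, a chemokine of mature dendritic cells, had 4318 ± 63.9 TPM with lysine and 3204 ± 138 TPM with PBS (log2 fold change 0.43 ± 0.053), and Tnfsf13b, which encodes the B cell factor BAFF, had 5.39 ± 0.621 TPM with lysine and 5.37 ± 1.61 TPM with PBS (adjusted p = 0.91).

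Traf3 belongs to the adaptors and ubiquitin ligases that link receptors to IKK. In that list 7 of 20 rose, 10 fell and 3 did not pass (median log2 fold change -0.23), against 25.8% higher and 29.3% lower over all genes tested. Traf6, the ubiquitin ligase of the Toll-like receptor route, had 26.0 ± 2.55 TPM with lysine and 12.3 ± 0.717 TPM with PBS. Irak2, a kinase of the same route, had 184 ± 31.5 TPM with lysine and 87.9 ± 3.61 TPM with PBS. Both rose about 2-fold (log2 fold changes 1.02 ± 0.094 and 1.04 ± 0.12). Among the receptors 4 of 16 rose, 7 fell and 5 did not pass. Over all genes tested the shares were 25.8% higher and 29.3% lower, near the share of receptors that rose. Without lysine replicate 2, PBS replicate 1 or PBS replicate 2, the receptors called were 3 higher and 4 lower. Those 3 fits called 2747 to 2807 of all 12539 genes higher and 3089 to 3167 lower. Tlr2, a receptor of bacterial lipoproteins, had 311 ± 7.22 TPM with lysine and 106 ± 19.1 TPM with PBS (log2 fold change 1.57 ± 0.13). Its partner Tlr1 had 0.773 ± 0.116 TPM with lysine and 3.51 ± 1.02 TPM with PBS (log2 fold change -1.33 ± 0.18), and the interleukin-1 receptor gene Il1r1 had 6.99 ± 0.901 TPM with lysine and 1.82 ± 0.334 TPM with PBS (log2 fold change 1.5 ± 0.14).

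Of 11 partners of A20 and other deubiquitinases, 5 were called higher, 3 lower and 3 neither (median log2 fold change 0.23), where 25.8% of all genes tested were called higher and 29.3% lower. Otud7b, a relative of A20, had 16.6 ± 0.529 TPM with lysine and 8.02 ± 0.46 TPM with PBS. Spata2, which joins the deubiquitinase CYLD to its target complex, had 26.5 ± 0.426 TPM with lysine and 14.8 ± 0.626 TPM with PBS. Tnip3, which encodes an A20-binding protein, fell, with 43.4 ± 4.43 TPM with lysine and 76.6 ± 1.23 TPM with PBS (log2 fold change -0.81 ± 0.082). Of 5 genes of the ubiquitin ligase that destroys phosphorylated IkB, Cul1, its scaffold, was called higher (55.7 ± 0.266 TPM with lysine, 35.6 ± 1.5 TPM with PBS). Rbx1 (55.0 ± 3.44 TPM with lysine, 74.6 ± 5.99 TPM with PBS) and Skp1 (56.9 ± 2.31 TPM with lysine, 67.4 ± 2.31 TPM with PBS) were called lower. The other 2, Btrc and Fbxw11, named after their values were seen, encode its substrate receptors and did not pass (adjusted p = 0.141 and 0.995).

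Among 12 nuclear cofactors of NF-kB, 7 were called higher, 4 lower and 1 neither (median log2 fold change 0.41), where the shares of all genes tested were 25.8% higher and 29.3% lower. The 4 became 2 without lysine replicate 1 or 2 or PBS replicate 3. Crebbp, an acetyltransferase that acts as a coactivator, had 15.9 ± 0.0723 TPM with lysine and 7.60 ± 0.934 TPM with PBS. Sirt1, a deacetylase that acts on p65, had 17.4 ± 1.43 TPM with lysine and 6.87 ± 0.587 TPM with PBS. Ncor1, a corepressor, had 67.5 ± 2.29 TPM with lysine and 42.9 ± 0.390 TPM with PBS. The 3 cofactor genes with the smallest adjusted p were thus a coactivator and a pair of repressors, and all 3 rose.

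Known targets of NF-kB made up the longest list. Of 43 listed, 42 were tested: 24 were called higher, 6 lower and 12 neither, with a median log2 fold change of 0.42, where 25.8% of all genes tested were called higher and 29.3% lower. Il10 was not tested because it stayed below 1 TPM in every sample. Gadd45b, a stress and survival gene, had 652 ± 116 TPM with lysine and 81.2 ± 6.85 TPM with PBS (log2 fold change 2.98 ± 0.14, adjusted p = 3.02e-05). The costimulator gene Cd80 had 64.0 ± 2.24 TPM with lysine and 23.1 ± 0.824 TPM with PBS (log2 fold change 1.43 ± 0.061). The chemokine gene Ccl2 went the other way, with 173 ± 11.6 TPM with lysine and 812 ± 143 TPM with PBS (log2 fold change -2.22 ± 0.12, adjusted p = 5.35e-05). Lists of targets of this kind also hold genes that other factors control.

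Of the interleukin and colony-stimulating factor genes tested in the target list, a grouping made after their values were seen, 7 were called higher and 1 lower. Over all genes tested, 25.8% were called higher and 29.3% lower. The cytokine subunit gene Ebi3, of the same list but outside this grouping, did not pass (log2 fold change -0.23, adjusted p = 0.0995). Il6 had 70.4, 65.1 and 48.5 TPM with lysine and 19.2, 15.8 and 16.7 TPM with PBS. Lysine replicate 3 was the lowest of its group, as it was for Nfkbiz and Tnfaip3. Tnf had 196 ± 64.8 TPM with lysine and 141 ± 9.53 TPM with PBS and did not pass the test (adjusted p = 0.196). Without lysine replicate 3 it did, at a log2 fold change of 0.72 (adjusted p = 0.0013). Il1b had 61.0 ± 12.9 TPM with lysine and 89.1 ± 9.01 TPM with PBS (log2 fold change -0.56 ± 0.16, adjusted p = 0.0244, and 0.0784 without PBS replicate 1 and 0.0515 without the third). It was the single gene of the group that fell. The other risers were the growth factor genes Csf2 (log2 fold change 1.83), Csf3 (0.58) and Csf1 (0.42) and the interleukin genes Il23a (0.86), Il1a (0.75) and Il12b (0.37). Il23a (2.16 ± 1.09 TPM with lysine, 0.693 ± 0.238 TPM with PBS) and Csf3 (1.78 ± 0.307 and 0.853 ± 0.157 TPM) were near the floor. Csf2 had 23.4, 20.1 and 7.65 TPM with lysine and 2.81, 3.93 and 4.26 TPM with PBS. With 1 sample left out, the adjusted p reached 0.0872 for Il23a (without PBS replicate 1), 0.086 for Il12b (without PBS replicate 2), 0.0705 for Il1a (without lysine replicate 2) and 0.0516 for Csf3 (without lysine replicate 1). Csf1 and Csf2 were called in every alternative. The chemokine genes of the target list, also grouped after their values were seen, were mixed. Cxcl3 (log2 fold change -1.76), Ccl4 (-1.12) and Ccl3 (-0.51, adjusted p = 0.0498) were called lower, like Ccl2. Cxcl1 (0.99) and Cxcl2 (0.91) were called higher, and the rest did not pass.

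Profiles over the 6 samples were also compared with those of all other genes tested, leaving out predicted models. Likeness was the root mean square difference of log2(TPM + 1), each gene centred on its own mean. The profiles most like that of Rel were those of Rsrc2 (0.025), Odc1 (0.059) and Mdm2 (0.068). Those most like Relb were Sfmbt1 (0.038), Sirt1 (0.039) and Zfp451 (0.041). Those most like Nfkbia were Ahnak (0.036), Rbpms2 (0.039) and Lpin2 (0.04), and those most like Tnfaip3 were H1f2 (0.075), Il6 (0.075) and Dio2 (0.084). Il6 is the single gene among these 12 that is in the list of NF-kB targets, and Sirt1 the single one among the cofactors.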

How the data were processed

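The authors deposited TPM values, with 1 column per sample for 55740 gene models; the series design text names RSEM as the source of the abundances. The tools and build, per the submitters' processing notes, included HISAT2, StringTie, RSEM, edgeR and GRCm38.p6. Their roles, versions, settings and strand use: not given in the sources used here. Columns were matched to samples by group letter or word and replicate number. Each column sums to 1000000, so values are relative to the rest of the sample.

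From these values, limma 3.58.1 in R 4.3.3 (with an intensity trend) was fitted to log2(TPM + 1) over all 6 samples for genes that reached 1 TPM or more in 3 or more samples. P-values were two-sided and Benjamini-Hochberg adjusted over all genes tested. The fit was tested on simulated data with known changes. Gene positions came from GENCODE M21 (GRCm38), which held 52083 of the 55740 identifiers; promoter sequences came from RefSeq. One list symbol, Skp1a, was matched as Skp1. The members and lists were chosen with earlier results of these data known. Named list genes were the 3 with the smallest adjusted p in each list, plus Bcl3, Nfkbid, Chuk, Ikbkb, Ikbkg, Map3k14, Traf3, Tnf, Il6 and Il1b, and the 3 profiles most like those of Rel, Relb, Nfkbia and Tnfaip3. Alternatives were a replicate block, a pseudocount of 0.1, other filters, 2 scalings, no trend, and leaving out each sample.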

Additional observations from a re-analysis of the deposited data

How the results depend on the processing

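All 10 NF-kB genes kept their direction and stayed past the threshold in each of the 13 alternatives. The weakest adjusted p were 0.0303 for Nfkb2 (without lysine replicate 2) and 0.0297 for Nfkbia (under quantile normalization). Leaving out 1 sample moved the log2 fold change of Nfkbiz between 2.17 and 2.46, and that of Rela between 0.33 and 0.43. Over all genes tested, the number changed was 6904 and ranged from 5851 to 6969 with 1 sample left out. Median-of-ratios scaling called 3520 genes higher and 3520 lower. The log2 ratio of Nfkbia to Rela (0.045) moved between -0.035 and 0.18 with 1 sample left out. Of 92 pathway genes called, 66 were called in every alternative that tested them, 26 lost the call in at least 1, none changed direction, and 10 of 30 not called were called in at least 1. With no filter on low values, 3 NF-kB targets, 2 receptors and 2 cofactors were called lower, beside 3348 of all 26231 genes tested. With a filter of 5 TPM, 4 receptors were called lower, beside 2997 of all 9363 genes tested. The main fit called 3673 of 12539 lower, so the share of all genes called also moved with the filter.

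The labels do not say what a replicate number marks. Deviations from the group means correlated across genes at 0.171, 0.092 and 0.245 between same-numbered samples and at -0.208 to 0.0484 between the others, a hint from the data that the numbers may pair the samples. With 1 pair under 0.1 they were not treated as pairs. A replicate block called 7339 genes and all 10 NF-kB genes. Of the list genes named, it gained Ikbkb (adjusted p = 0.0464) and lost Il23a (adjusted p = 0.0535). No depth is known, so precision rests on 3 samples per group.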
